A study of Drosophila melanogaster with 30 samples.

Results

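The genes *can*, *mia*, *sa* and *nht*, which encode testis forms of TATA-binding protein-associated factors (TAFs), and *aly*, *comr*, *topi* and *tomb*, which encode subunits of the testis meiotic arrest complex (tMAC), were followed in RNA from whole *pink1*-mutant flies. They were selected by name as known regulators of transcription in spermatocytes, when earlier results of these data were already known. They were 8 of the 14326 genes in the table of the series, with 4 testis TAFs and 4 tMAC genes. All 8 passed the filter on low counts. Their counts per library lay between 23 for *comr* and 1840 for *topi*. The study asked why some flies without Pink1, a mitochondrial kinase, can still fly. Each library came from a pool of 5 whole male *Drosophila melanogaster* aged 1 day. Group 4 (10 libraries) was made of *w pink1B9* flies able to fly, and group 3 (10 libraries) of their *w pink1B9* brothers from the same parent pairs that did not fly. Group 2 (8 libraries) was made of *w pink1B9* flies from parent pairs without any flying offspring. Group 1 (2 libraries) was made of *w pink1RV* control flies, which flew. *pink1B9* is a deletion in *Pink1* and *pink1RV* is the revertant control line with an intact gene, and all groups carry *w*.

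Male germ cells of the fly switch on a large testis program while they grow as primary spermatocytes, before the meiotic divisions. The testis TAFs are paralogs of general TFIID subunits, and tMAC is a testis form of the MMB/dREAM complex that regulates transcription in other cells. Males that lack any of several of these regulators have testes filled with spermatocytes that neither divide nor differentiate, which gave the meiotic arrest genes their name. In whole flies these transcripts come from the testis, and fewer spermatocytes and less RNA per spermatocyte cannot be told apart.

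*Pink1* averaged 63.5, 58.5 and 54.1 CPM (read counts relative to library size, scaled by the TMM method) in groups 4, 3 and 2 and 246 CPM in group 1, with log2 fold changes of -1.95, -2.07 and -2.18. Total counts ranged from 6434252 to 38330421 per library. The tissue label of 6 libraries, 3 in group 4 and 3 in group 3, names human skin, while 14105 of the 14326 genes of the table match fly gene symbols, and the results were also computed without these libraries. In group 4, library GC055057 stood apart, with a sum of 6476 CPM over the ovary and yolk genes against 24.5 to 68.8 CPM in the other 29 libraries. Its *Pink1* level of 101 CPM was also above the 42.5 to 74.0 CPM of the other 27 mutant libraries, and below the controls at 221 and 270 CPM. Without it *Pink1* averaged 59.3 CPM in group 4 (n = 9), and whether this pool held *pink1B9* flies alone was not tested. In these 29 libraries the accessory gland genes of males summed to 1875 to 6114 CPM and the flight muscle genes to 3634 to 20440 CPM. Only 2 control libraries exist, so each difference between mutants and controls rests on these 2 pools. The labels do not say whether the pools of a group came from separate crosses, so p-values measure the spread between pools.

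*can* was the testis TAF with the largest fold changes between mutant and control flies. The gene encodes a WD40 paralog of the general subunit Taf5 and lies on chromosome 3L (10263909 to 10267111, minus strand, BDGP6.54). Its lowest, median and highest levels were 13.6, 21.7 and 26.5 CPM in group 4. In group 3 they were 15.2, 23.8 and 30.7 CPM. They were 16.8, 22.1 and 33.8 CPM in group 2, and the controls had 12.2 and 9.34 CPM. All 28 mutant libraries were above both controls, as for 7.75% of all genes tested. The log2 fold changes against group 1 were 0.93 (SE 0.27, adjusted p = 0.012) for group 4, 1.14 (SE 0.28, adjusted p = 0.0043) for group 3 and 1.17 (SE 0.28, adjusted p = 0.0044) for group 2, in edgeR's quasi-likelihood test, where p was adjusted over 13190 genes by Benjamini-Hochberg. All adjusted p-values against group 1 given for single genes are from this fit unless another is named. Without control GC055041, the control with the lower level, *can* kept log2 fold changes of 0.74 (group 4), 0.95 (group 3) and 0.99 (group 2) but no longer passed the threshold (adjusted p = 0.22, 0.14 and 0.15).

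*sa* and *nht* had smaller differences that passed the threshold in 1 comparison each. *sa*, the paralog of Taf8, lies on chromosome 3L (21405425 to 21406738, minus strand), inside the span of *rgn* on the other strand without overlap of exons. Its lowest, median and highest levels were 13.7, 23.5 and 31.4 CPM in group 4, 14.8, 20.3 and 25.7 CPM in group 3 and 12.7, 19.6 and 33.6 CPM in group 2, while the controls had 15.4 and 11.4 CPM. The highest control lay within the range of every mutant group, and 25 of the 28 mutant libraries were above both controls. The log2 fold change of *sa* was 0.77 (SE 0.26, adjusted p = 0.026) in group 4, and the values of 0.63 in group 3 and 0.69 in group 2 missed the threshold (adjusted p = 0.073 and 0.066). Without control GC055040 the value in group 4 was 1.03 (adjusted p = 0.057), without control GC055041 it was 0.56 (adjusted p = 0.30), and without the libraries labelled human skin it was 0.69 (adjusted p = 0.077). *rgn* had a log2 fold change of -1.11 in group 4, opposite in sign to *sa*.

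*nht*, the paralog of Taf4, lies on chromosome 2L (15317954 to 15318901, minus strand). Its lowest, median and highest levels were 6.15, 9.02 and 12.2 CPM in group 4. In group 3 they were 6.52, 9.22 and 12.0 CPM, and in group 2 they were 7.04, 9.96 and 12.5 CPM, against 6.79 and 5.54 CPM in the controls. Every library of group 2 was above both controls, as for 11.1% of all genes tested, and so were 8 of 10 libraries in group 4 and 9 of 10 in group 3. The log2 fold change passed the threshold in group 2 (0.72, SE 0.25, adjusted p = 0.036) but not in group 3 (0.58, adjusted p = 0.071) or group 4 (0.55, adjusted p = 0.077). The call in group 2 was lost without control GC055040 (0.90, adjusted p = 0.092) and without control GC055041 (0.58, adjusted p = 0.34), and with only groups 2 and 1 in the fit (adjusted p = 0.063). In group 4, *nht* passed the threshold without library GC055057 (0.57, adjusted p = 0.040).

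*mia* was the testis TAF whose level was not higher in mutants. It encodes the paralog of Taf6 and lies on chromosome 3R (5548115 to 5551168, minus strand). Its lowest, median and highest levels were 8.59, 10.3 and 13.1 CPM in group 4, 9.10, 11.2 and 16.4 CPM in group 3 and 8.94, 12.5 and 19.5 CPM in group 2, and both controls, at 13.2 and 13.4 CPM, were close to each other. All 10 libraries of group 4 were below both controls, as for 12.7% of all genes tested, but in group 3 only 6 of 10 and in group 2 only 5 of 8 were. Its log2 fold changes, -0.32 (SE 0.22) in group 4, -0.16 in group 3 and -0.03 in group 2, did not pass the threshold (adjusted p = 0.27, 0.63 and 0.95).

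Among the tMAC genes *tomb* had the largest fold change, and it was also the largest among the 8 genes in each comparison of a mutant group with group 1. Tombola has a CXC DNA-binding domain and is related to Mip120 of the MMB/dREAM complex, and its gene lies on chromosome 2L (5535861 to 5536758, minus strand). Its lowest, median and highest levels were 6.16, 7.42 and 11.4 CPM in group 4, 4.82, 7.11 and 9.90 CPM in group 3 and 4.53, 7.93 and 11.2 CPM in group 2, while the controls had 3.45 and 2.61 CPM. Every mutant library was above both controls, as for 7.75% of all genes tested. The log2 fold changes were 1.33 (SE 0.29, adjusted p = 0.0013) in group 4, 1.25 (SE 0.29, adjusted p = 0.0028) in group 3 and 1.34 (SE 0.29, adjusted p = 0.0020) in group 2. An exon of *tomb* overlaps an exon of *Cap-D3* on the other strand by 98 bases, and *Cap-D3* had log2 fold changes of -0.21, -0.23 and -0.08. Without control GC055041 the log2 fold changes of *tomb* were 1.12, 1.05 and 1.14 and missed the threshold (adjusted p = 0.062, 0.095 and 0.080).

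*topi*, which encodes a zinc finger protein of tMAC that binds DNA, was also higher in all mutant groups. It lies on chromosome 3R (9775121 to 9777943, plus strand). Its lowest, median and highest levels were 31.0, 50.2 and 65.9 CPM in group 4. In group 3 they were 48.7, 52.2 and 61.8 CPM, and in group 2 they were 38.4, 54.5 and 71.1 CPM, against 33.6 and 34.1 CPM in the controls. Apart from library GC055057, at 31.0 CPM, every mutant library was above both controls. For 19.1% and 11.1% of all genes tested, every library of group 3 and of group 2 was above both controls. The log2 fold changes were 0.57 (SE 0.20, adjusted p = 0.029) in group 4, 0.67 (SE 0.20, adjusted p = 0.016) in group 3 and 0.71 (SE 0.21, adjusted p = 0.016) in group 2. With only 1 control in the fit the values stayed at 0.59, 0.69 and 0.72 without GC055040 and at 0.57, 0.68 and 0.71 without GC055041, but none passed the threshold (adjusted p = 0.13, 0.11 and 0.11, and 0.19, 0.14 and 0.15). In group 4 the call was also lost without the libraries labelled human skin (adjusted p = 0.053), and in groups 4 and 2 with only the compared groups in the fit (adjusted p = 0.10 and 0.054).

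*aly* and *comr* did not differ from the controls by more than the spread between libraries. *aly*, the fly paralog of *mip130* and a relative of *lin-9* of *Caenorhabditis elegans*, lies on chromosome 3L (3024129 to 3026521, minus strand). Its medians were 9.83, 9.67 and 11.2 CPM in groups 4, 3 and 2, the mutant libraries ranged from 6.01 to 13.8 CPM, and the controls had 10.5 and 9.05 CPM. Of the mutant libraries 11 were above both controls, 9 below and 8 between them. The log2 fold changes were -0.05, 0.01 and 0.17 (adjusted p = 0.88, 0.97 and 0.65).

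*comr*, which encodes a nuclear tMAC protein that depends on Aly to enter the nucleus, lies on chromosome 2R (21864870 to 21866859, minus strand) and had the lowest level of the 8 genes. Its medians were 3.62, 3.83 and 4.60 CPM in groups 4, 3 and 2, the mutant libraries ranged from 2.30 to 5.33 CPM, and the controls had 3.52 and 2.35 CPM. The log2 fold changes of 0.30, 0.38 and 0.52 did not pass the threshold (adjusted p = 0.37, 0.27 and 0.16), and 19 of the 28 mutant libraries were above both controls.

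**Figure D1:**
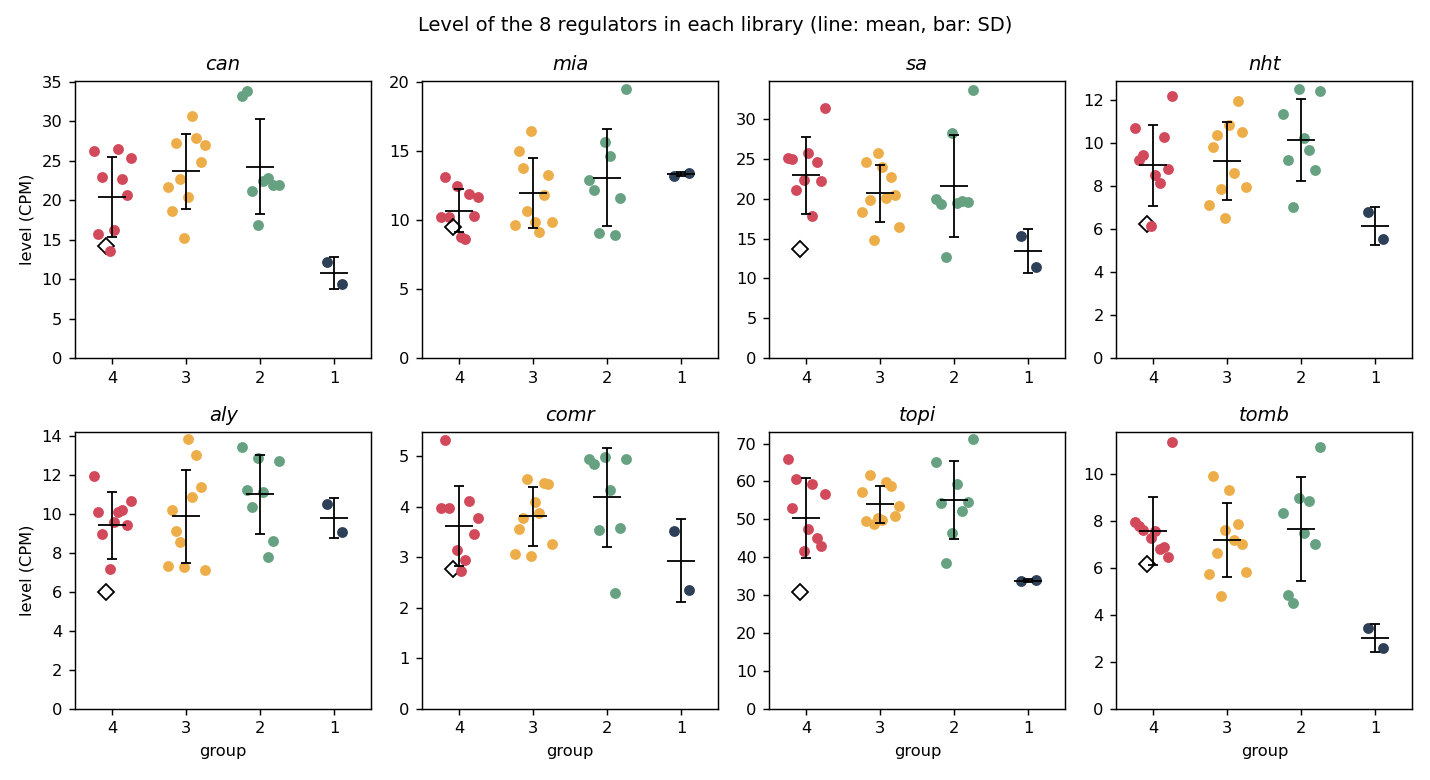
Level of each regulator in CPM (y axis, from 0) in every library, by group (x axis, groups 4, 3, 2 and 1 from left to right, n = 10, 10, 8 and 2), with the mean as a line, the SD as bars and library GC055057 as an open diamond. For *can* and *tomb* all 28 mutant libraries lie above both controls, as for 7.75% of all genes tested. For *mia* all 10 libraries of group 4 lie below them, as for 12.7% of all genes, and for *aly* the groups overlap.

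Counted together, 4 of the 8 genes rose in group 4 (*can*, *sa*, *topi* and *tomb*), 3 in group 3 (*can*, *topi* and *tomb*) and 4 in group 2 (*can*, *nht*, *topi* and *tomb*), and none fell. Of all 13190 genes tested, 17.5%, 14.2% and 10.7% rose and 15.7%, 12.3% and 9.52% fell in these comparisons, so calls against group 1 were common. The median log2 fold change of the 8 genes was 0.56, 0.60 and 0.70 in groups 4, 3 and 2, against 0.08, -0.01 and 0.00 over all genes tested. The 3 comparisons use the same 2 control libraries. All 28 mutant libraries were above both controls for 2 of the 8 genes, *can* and *tomb*, and for 7.75% of all genes tested. Without control GC055041 none of the 8 genes passed the threshold in any of the 3 comparisons, and 8.28%, 5.81% and 5.15% of all genes passed it in either direction. Without control GC055040 *can* and *tomb* passed it in each, against 16.7%, 11.4% and 9.47% of all genes.

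To see how the regulators stood relative to the other transcripts of the male germ line, the libraries were also scaled to 25 testis genes instead of to all genes. These were spermatid differentiation genes and spermatocyte structural genes, and they did not include the 8 regulators. Under this scaling *tomb* was still higher in mutants, by 0.63 (group 4), 0.55 (group 3) and 0.70 (group 2) on the log2 scale (adjusted p = 0.014, 0.028 and 0.014). *can* had positive values of 0.24, 0.48 and 0.62 that missed the threshold (adjusted p = 0.59, 0.26 and 0.18).

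Most genes called under this scaling were lower in mutants, with 35.9%, 38.5% and 21.7% of all genes lower and 2.47%, 2.19% and 1.96% higher in groups 4, 3 and 2. *mia* fell relative to testis transcripts by 1.02, 0.86 and 0.67 on the log2 scale in groups 4, 3 and 2 (adjusted p = 0.00018, 0.0014 and 0.015). *aly* fell by 0.76 in group 4 and by 0.67 in group 3 (adjusted p = 0.013 and 0.026), and its value of -0.41 in group 2 missed the threshold (adjusted p = 0.19). *sa*, *nht* and *topi* had values between -0.16 and 0.11, and *comr* had -0.39, -0.28 and -0.07, none past the threshold. The median of all genes moved to -0.57, -0.68 and -0.57 under this scaling, so the values state how a regulator differed relative to testis transcripts and not relative to the whole fly. Relative to either set of genes, *tomb* passed the threshold upward in all 3 comparisons, and the values of *mia* were negative.

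**Figure D2:**
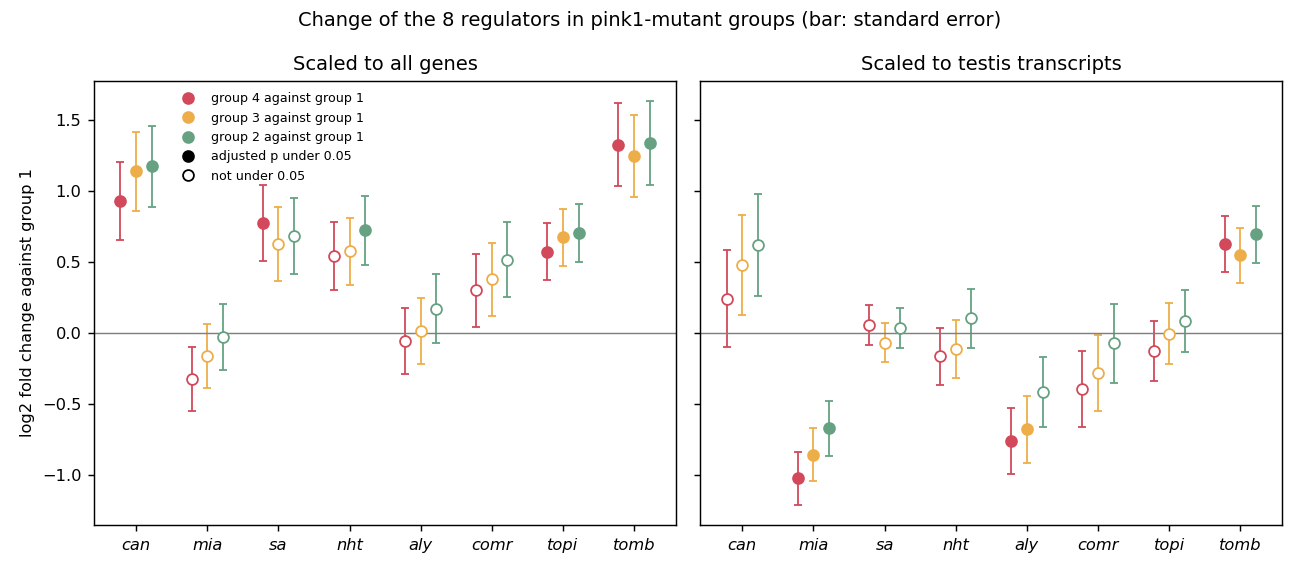
Log2 fold change of each regulator against group 1 (y axis) with its standard error, for group 4, group 3 and group 2 from left to right within each gene (x axis), scaled to all genes (left panel) and to 25 testis genes (right panel). Filled points have an adjusted p under 0.05. *tomb* is filled in all 3 comparisons of both panels, and *mia* is filled below 0 in the right panel only.

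Flying and non-flying mutants did not differ detectably in these regulators when compared without pairing. Groups 4 and 3 share parent pairs, but the labels do not say which libraries do, so differences between parent pairs remain in the spread of this test. Between groups 4 and 3, the flying and non-flying offspring of the same parent pairs, log2 differences ranged from -0.21 for *can* (SE 0.15) to 0.15 for *sa* (SE 0.14), and none of the 8 genes passed the threshold. Between groups 4 and 2 the largest difference in size was -0.30 for *mia* (SE 0.14, unadjusted p = 0.044, adjusted p = 0.41). Between groups 3 and 2 all values lay between -0.16 and -0.03. Over all genes edgeR called 0 of 13190 between groups 4 and 3, groups 4 and 2 and groups 3 and 2 (0% in each), while 1055, 1593 and 243 genes had an unadjusted p under 0.05. DESeq2 called 1, 3 and 0 genes and limma-voom called 0 in each, and neither called one of the 8 regulators.

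Within the libraries labelled whole body, *sa* averaged 21.6 ± 4.41 CPM in group 4 and 21.1 ± 3.89 CPM in group 3 (SD, n = 7 each). Within those labelled human skin it averaged 26.1 ± 4.77 CPM in group 4 and 19.9 ± 3.19 CPM in group 3 (SD, n = 3 each). *can* was lower in group 4 under both labels, with 19.4 ± 5.67 CPM in group 4 and 22.4 ± 5.21 CPM in group 3 (SD, n = 7 each) among the libraries labelled whole body, and 22.9 ± 2.31 CPM in group 4 and 26.6 ± 1.53 CPM in group 3 (SD, n = 3 each) among those labelled human skin. These differences were not tested within the labels.

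Penetrance was modelled by 2 contrasts, flying flies (groups 1 and 4, each group with equal weight) against non-flying mutants (groups 2 and 3), and flying against non-flying mutants. A joint F-test of both contrasts called *tomb* (adjusted p = 0.0032), *can* (adjusted p = 0.0054) and *topi* (adjusted p = 0.023), 3 of the 8 genes, against 27% of all genes tested. Together the 2 contrasts cover every difference among controls, flying mutants and non-flying mutants. A gene that differs only between controls and mutants can thus pass, so a call is not specific to flight. The remaining members had adjusted p-values of 0.066 for *sa* and 0.085 for *nht*, and of 0.24 to 0.59 for *mia*, *comr* and *aly*. Without control GC055041 none of the 8 genes passed this F-test, against 6.49% of all genes. In the contrast of flying with non-flying mutants alone, *can* had a log2 difference of -0.23 (SE 0.13) and *mia* one of -0.22 (SE 0.12), and no member had an adjusted p below 0.40. For *tomb*, *can* and *topi* the adjusted p of this contrast was 0.91, 0.43 and 0.60.

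Per kilobase of exon, *sa* and *topi* had the highest levels and *comr* the lowest in every group. In group 4 the means were 24.0 ± 5.0 CPM per kb for *sa* and 19.0 ± 4.00 for *topi*, followed by 9.47 ± 1.98 for *nht*, 9.08 ± 1.74 for *tomb* and 6.91 ± 1.71 for *can* (SD, n = 10). *aly* with 4.15 ± 0.76, *mia* with 4.12 ± 0.60 and *comr* with 1.82 ± 0.40 CPM per kb followed. *nht* and *tomb*, and *aly* and *mia*, lay within 1 SD of each other, and the means ± SD of *sa* and *topi* overlapped. In group 1 the means were 14.0 CPM per kb for *sa*, 12.8 for *topi*, 6.50 for *nht*, 5.14 for *mia*, 4.32 for *aly*, 3.64 for *can*, 3.62 for *tomb* and 1.48 for *comr* (n = 2). *can* and *tomb* thus stood above *mia* and *aly* in group 4, and below them in group 1 by their means. In group 1 the means ± SD of *can* (3.64 ± 0.68), *tomb* (3.62 ± 0.71) and *aly* (4.32 ± 0.46) overlapped, so their order there is uncertain.

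Over the 28 mutant libraries the regulators varied together in subsets. Of the 28 pairs, 10 had a Pearson r above 0.5 and 3 had one below 0, with a median of 0.44. For 15 pairs the adjusted p of r was under 0.05 in a two-sided permutation test with 100000 permutations. Some of these pairs missed the threshold by Spearman's rho, such as *can* with *nht* (adjusted permutation p = 0.10) and *sa* with *aly* (adjusted permutation p = 0.083). All correlations use log2(CPM + 1). Flying mutants and their non-flying brothers come from the same parent pairs, so their libraries may not be independent. The labels do not say which libraries share parents, and no permutation test of a correlation, here or below, took this into account. The p-values of these tests may therefore be too small. *sa* and *tomb* had r = 0.82 and Spearman's rho = 0.77, and *nht* and *aly* had r = 0.81 and rho = 0.79. Both pairs had p = 1e-05, the smallest that these permutations can give, and an adjusted p of 0.00014 over 28 pairs. *aly* and *comr* had r = 0.71 and rho = 0.70 (permutation p = 6e-05, adjusted p = 0.00056), and *can* and *topi* had r = 0.63 and rho = 0.68 (permutation p = 0.00025, adjusted p = 0.0015). *sa* with *tomb*, *nht* with *aly* and *can* with *topi* each pair a testis TAF with a tMAC gene, while *aly* and *comr* are both tMAC genes. The testis TAFs *sa* and *nht* had r = 0.60, and *nht* and *tomb* had r = 0.63, close to *can* and *topi*. Whether pairs across the sets differ from pairs within them was not tested.

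The 3 pairs with negative values were *can* with *mia* (-0.15), *sa* (-0.14) and *tomb* (-0.12), with unadjusted permutation p-values of 0.45, 0.47 and 0.53. *can* and *tomb*, the 2 genes above both controls in all mutant libraries, therefore had no detectable relation among the mutants. With the 2 libraries farthest from the median of the first gene left out, r was 0.73 for *sa* and *tomb*, 0.75 for *nht* and *aly*, 0.67 for *aly* and *comr* and 0.49 for *can* and *topi*. Within the 22 mutant libraries labelled whole body r was 0.81, 0.81, 0.69 and 0.66 for these pairs, and within the 6 labelled human skin it was 0.88, 0.88, 0.89 and 0.93. With group means removed the values were 0.82, 0.80, 0.69 and 0.60, and without library GC055057 they were 0.83, 0.78, 0.68 and 0.56.

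**Figure D3:**
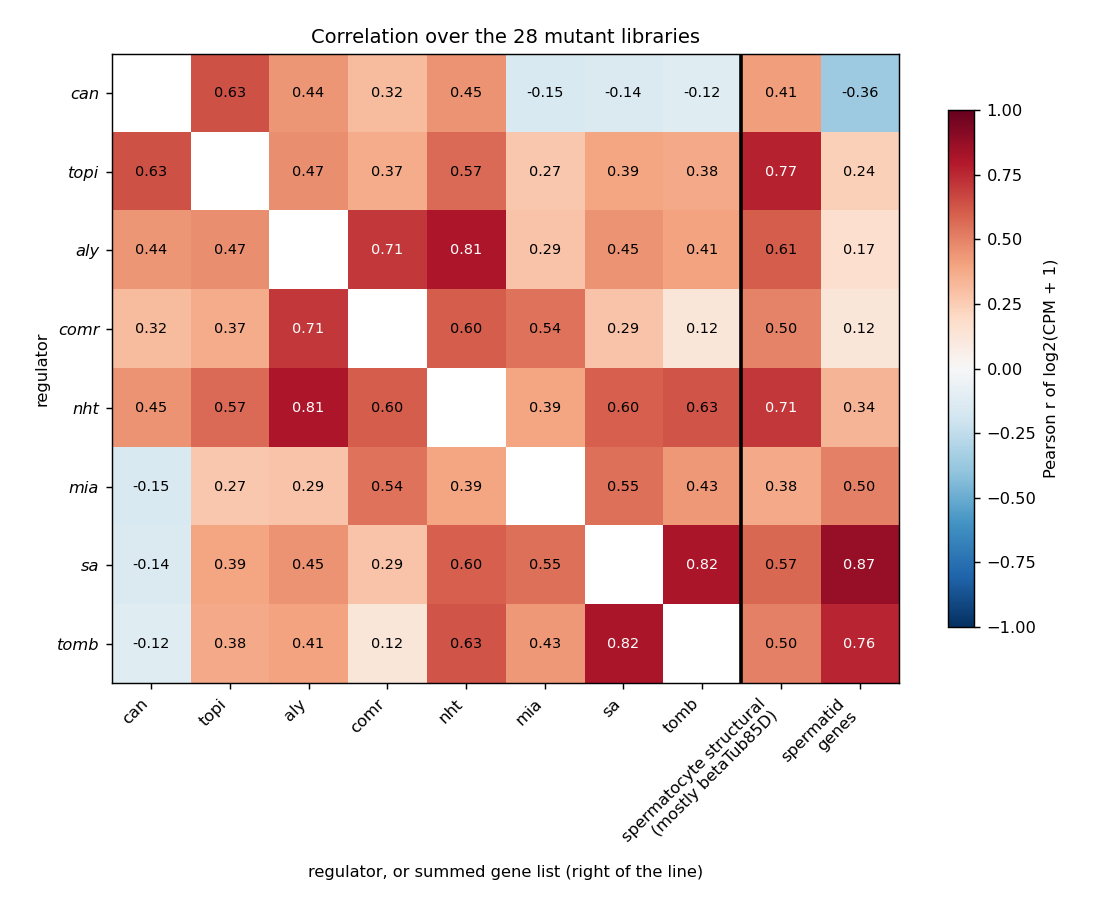
Pearson r of log2(CPM + 1) over the 28 mutant libraries between pairs of regulators, and between each regulator (rows) and the summed level of 10 spermatocyte structural genes (mostly *betaTub85D*) and of 15 spermatid differentiation genes (the 2 columns right of the line). *sa* and *tomb* have r = 0.82 with each other and 0.87 and 0.76 with the spermatid genes, while *can* has -0.36 with them.

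The spermatid differentiation genes, whose transcription in spermatocytes depends on the testis TAFs and tMAC, summed to 7749 ± 1826 CPM in group 4, 7188 ± 1523 CPM in group 3 and 6582 ± 2006 CPM in group 2, against 3990 ± 390 CPM in group 1 (SD, n = 10, 10, 8 and 2). Over the mutant libraries their sum had r = 0.87 and rho = 0.82 with *sa* (permutation p = 1e-05, adjusted p = 8e-05 over 16 relations) and r = 0.76 and rho = 0.70 with *tomb* (permutation p = 2e-05, adjusted p = 8e-05). *mia* had r = 0.50 (permutation p = 0.0062, adjusted p = 0.011), but its rho of 0.41 missed the threshold (permutation p = 0.030, adjusted p = 0.053). The values of *nht* (0.34), *topi* (0.24), *aly* (0.17) and *comr* (0.12) did not pass, nor did the negative r = -0.36 of *can* (rho = -0.35, permutation p = 0.059, adjusted p = 0.079). With the 2 libraries farthest from the median of the sum left out, r was 0.84 for *sa*, 0.72 for *tomb*, 0.46 for *mia* and -0.40 for *can*. Without library GC055057 r was 0.87 for *sa*, 0.75 for *tomb*, 0.48 for *mia* and -0.48 for *can*, and these values were not tested. In the libraries labelled whole body r was 0.88 for *sa* and -0.45 for *can*, and in the 6 labelled human skin it was 0.84 for *sa* and 0.21 for *can*.

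The sum of the 10 spermatocyte structural genes was in large part the level of *betaTub85D*, the testis beta-tubulin, which made up 84.1% to 93.2% of it in the 30 libraries. The other 9 genes are Y-linked. This sum had r = 0.77 and rho = 0.63 with *topi*, r = 0.71 and rho = 0.66 with *nht*, and r = 0.61 and rho = 0.57 with *aly* (permutation p = 2e-05, 1e-05 and 0.00053, adjusted p = 8e-05, 8e-05 and 0.0017). *sa* had r = 0.57 (permutation p = 0.0015, adjusted p = 0.0041), which dropped to 0.29 with the 2 farthest libraries left out, so that this relation rested on those libraries. *topi* dropped to 0.54 and *nht* to 0.62, and *aly* had 0.58. The remaining members had r between 0.38 and 0.50. Of these *tomb*, *comr* and *can* passed in the permutation test of r (adjusted p = 0.011, 0.011 and 0.044) and *mia* did not (adjusted p = 0.063). By rank *can* did not pass either (rho = 0.37, adjusted permutation p = 0.076). With the 2 farthest libraries left out r was 0.39 for *tomb*, 0.46 for *comr*, 0.29 for *can* and 0.27 for *mia*. Without library GC055057 r was 0.64 for *topi*, 0.66 for *nht*, 0.48 for *aly* and 0.47 for *sa*. It was then 0.52 for *tomb*, 0.43 for *comr*, 0.27 for *can* and 0.35 for *mia*, and these values were not tested.

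The sum of the 9 Y-linked genes without *betaTub85D*, added after the data were seen, ranked the members in another way. *can* had r = 0.81 and rho = 0.76 with it (permutation p = 1e-05, adjusted p = 8e-05 over 8 relations), and *topi* had r = 0.55 and rho = 0.56 (permutation p = 0.0018, adjusted p = 0.0071). With the 2 libraries farthest from the median of the sum left out, r was 0.76 for *can* and 0.48 for *topi*. In the libraries labelled whole body r was 0.83 for *can* and 0.59 for *topi*, and in the 6 labelled human skin it was 0.59 and 0.33. *nht*, *aly* and *comr* had r of 0.27, 0.31 and 0.35, and *sa*, *tomb* and *mia* had -0.35, -0.29 and -0.06, none with an adjusted p of r under 0.05. By rank *sa* passed, with rho = -0.45 (permutation p = 0.017, adjusted p = 0.044), and the others of these genes did not. The r of *sa* was -0.53 with the 2 farthest libraries left out and -0.54 without library GC055057, where *can* had 0.79 and *topi* 0.47. The relations of *nht*, *aly* and *comr* with the whole sum were thus lost without *betaTub85D*, and those of *sa*, *tomb* and *mia* turned negative. All regulators and sums come from the same libraries and share their scaling.

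**Figure D4:**
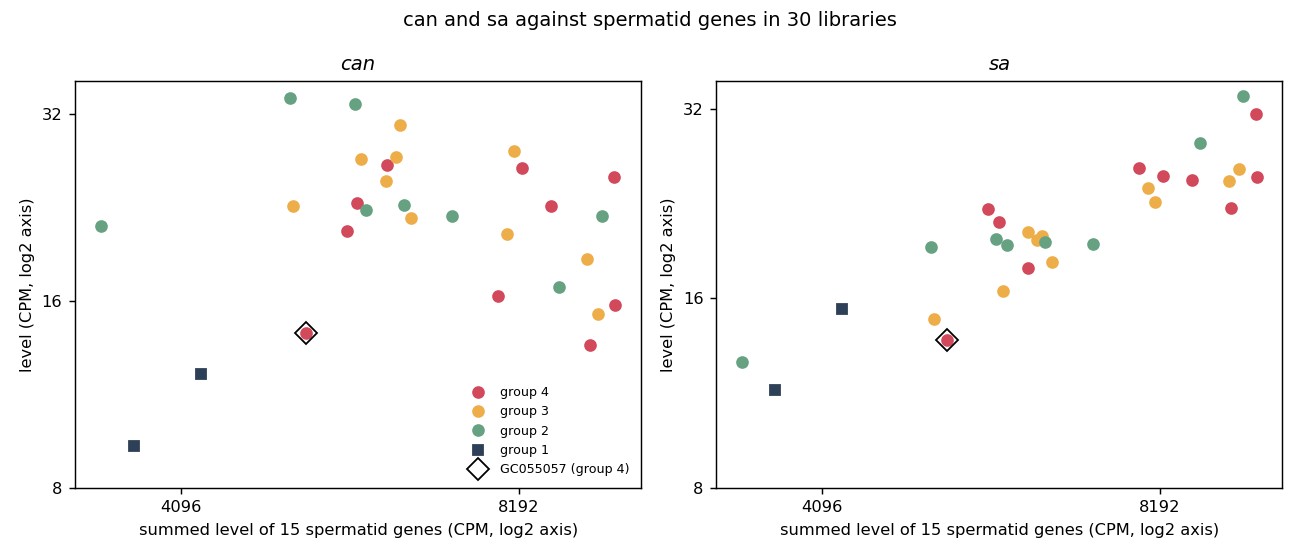
Level of *can* (left) and *sa* (right) in CPM (y axis, log2) against the summed level of 15 spermatid differentiation genes in CPM (x axis, log2) in all 30 libraries, with groups 4, 3 and 2 as circles, group 1 as squares and library GC055057 framed. Over the 28 mutant libraries r was 0.87 for *sa* and -0.36 for *can*, and both controls lie at the lower left of each panel.

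Library GC055057 had the lowest summed level of the 8 regulators in group 4, 89.5 CPM, against a group median of 137 CPM and 98.7 and 87.8 CPM in the controls. It was the lowest library of group 4 for *sa* (13.7 CPM), *aly* (6.01 CPM), *topi* (31.0 CPM) and *tomb* (6.16 CPM). Its spermatocyte structural genes, mostly *betaTub85D*, summed to 1069 CPM, below the 1190 to 2320 CPM of the other 29 libraries, while its ovary and yolk genes summed to 6476 CPM. The part of ovary RNA in these low levels was not tested. Without this library the threshold against group 1 was passed by 5, 3 and 5 of the 8 genes in groups 4, 3 and 2, with *nht* added in group 4 and *sa* in group 2, against 43.5%, 36.2% and 27.0% of all genes in either direction.

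The partners of the 8 genes were read from fixed lists. Of the 5 other tMAC subunits *achi*, which encodes a homeodomain protein (log2 fold changes 0.94, 1.00 and 1.06 in groups 4, 3 and 2, adjusted p = 0.00040, 0.00032 and 0.00024), and *mip40* (0.69, 0.60 and 0.55, adjusted p = 0.0065, 0.019 and 0.037) rose in all 3 mutant groups. *vis*, the near-identical neighbour of *achi*, was added after its values were seen and had 0.03, 0.18 and 0.26, and the division of reads between this pair is uncertain. *wuc*, the testis paralog of *lin-52*, had 0.78, 0.75 and 0.83 and missed the threshold (adjusted p = 0.071, 0.091 and 0.081). The fifth testis TAF, *Taf12L*, rose by 0.90, 1.06 and 0.95 (adjusted p = 0.0010, 0.00032 and 0.0010). Among all genes tested, 17.5%, 14.2% and 10.7% rose in groups 4, 3 and 2.

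The general paralogs *Taf4*, *Taf5*, *Taf6*, *Taf8* and *Taf12* did not pass the threshold in any of the 3 comparisons (0 of 5), with log2 fold changes from -0.71 to 0.52. Among all genes tested, 33.2%, 26.5% and 20.2% passed in either direction in groups 4, 3 and 2. A count of 0 among 5 genes therefore does not set these paralogs apart. Of 7 MMB/dREAM genes, *E2f2* rose in group 4 (0.64, adjusted p = 0.025) and *Myb* fell in groups 4, 3 and 2 (-0.33, -0.34 and -0.42, adjusted p = 0.035, 0.037 and 0.018). *E2f2* had 86.2 CPM in library GC055057, against 37.3 to 55.9 CPM in the other libraries of group 4, so this library raised its group 4 mean. *Taf5*, the general paralog of *can*, had log2 fold changes of -0.44, -0.68 and -0.71 (adjusted p = 0.36, 0.16 and 0.17), and the difference between the paralogs was not tested.

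Of 9 bromodomain and chromatin genes, 5 rose in group 4, 4 in group 3 and 4 in group 2, and none fell. Of all genes tested 17.5%, 14.2% and 10.7% rose. *tbrd-1*, which encodes a testis bromodomain protein that associates with testis TAFs, rose by 1.13, 1.23 and 1.21 (adjusted p = 0.00030, 0.00019 and 0.00027). *tbrd-2* rose by 0.93, 1.07 and 1.06 and *kmg*, which keeps transcription in spermatocytes to testis promoters, by 0.93, 1.12 and 1.19. *Nxt1*, an mRNA export factor that acts in this program, rose in group 4 alone by the threshold (0.96, 0.49 and 0.40). None of the 9 genes passed the threshold between mutant groups. Library GC055057 had 21.5 CPM of *Nxt1*, against 5.16 to 10.2 CPM in the other libraries of group 4, so it raised the group 4 mean.

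Among the genes downstream of the regulators, 13, 10 and 2 of the 15 spermatid differentiation genes rose in groups 4, 3 and 2 against group 1, and none fell. Of all genes tested 17.5%, 14.2% and 10.7% rose. All 15 had log2 fold changes above 0 in each group, and 0 of them passed the threshold between mutant groups. The falling count is thus no tested difference between mutant groups. Their median log2 fold changes were 1.06, 0.91 and 0.71. *gdl* (1.11, 1.01 and 1.06) and *Mst98Ca* (1.06, 0.94 and 0.81), which encodes a sperm tail protein, rose in all 3 groups. *Mst87F*, another sperm tail gene, had 1.35, 1.10 and 0.94 and missed the threshold in group 2 (adjusted p = 0.093). Of 13 transcripts made after meiosis, 9, 9 and 4 rose and none fell, among them *sunz* (1.16, 1.08 and 1.01) and *d-cup* (1.00, 0.91 and 0.80).

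Of 4 genes of the meiotic cell cycle, *twe*, the meiotic Cdc25 phosphatase (0.79, 0.77 and 0.78, adjusted p = 0.0018, 0.0029 and 0.0034), and *rux*, an inhibitor of cyclin A kinase (0.89, 0.85 and 0.83, adjusted p = 0.0072, 0.012 and 0.018), rose in all 3 groups and none fell. Of 10 spermatocyte structural genes 1, 3 and 1 rose, while 17.5%, 14.2% and 10.7% of all genes tested rose. *betaTub85D* had 0.52, 0.60 and 0.51 and missed the threshold in group 2 (adjusted p = 0.068). Of 5 spermatogonial genes *bgcn* alone rose (0.52, 0.67 and 0.64), and of 4 genes of the testis soma and hub *upd1*, the ligand made by the hub, alone rose (0.99, 0.90 and 0.89). Of 12 accessory gland genes tested 0 rose and 1, 1 and 4 fell, with *Acp36DE* at -0.92, -0.80 and -0.99, while 15.7%, 12.3% and 9.52% of all genes tested fell. The part of testis size in the levels of the 8 regulators was not tested.

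The genes whose profile over the 28 mutant libraries was most like the mean profile of the 8 regulators were *CG6220* (r = 0.92), *Rpt4R* (r = 0.91), *nsr* (r = 0.90), *CG9777* (r = 0.89), *CG10748*, *Best4*, *CG32259* and *Prosbeta5R2* (r = 0.88 each), and *Ref2* and *CG43843* (r = 0.87 each). *Rpt4R* and *Prosbeta5R2* encode testis forms of proteasome subunits, and *nsr* encodes an RNA-binding protein of spermatogenesis. *Prosbeta5R2* averaged 57.6, 60.2 and 64.5 CPM in groups 4, 3 and 2 and 17.9 CPM in group 1. Of the 13181 genes compared, 1630 had r above 0.5.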

How the data were processed

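The authors filtered reads of stranded total RNA libraries with fastp 0.23.4, pseudoaligned them to BDGP6.46 transcripts with kallisto 0.44.0 and used tximport 1.26.1 for gene-level values. In contrast, kallisto 0.45.0 and GRCh38 are named by the submitters' processing notes. The deposited values are counts per gene in whole numbers. No source used here says whether they were scaled by transcript length.

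Counts were analysed with edgeR 4.0.16 (R 4.3.3): filterByExpr, TMM and the robust quasi-likelihood F-test, in 1 fit of 30 libraries with a mean per group, with Benjamini-Hochberg adjustment over 13190 genes and a threshold of 0.05. SEs are the absolute log2 fold change divided by the root of F. Steps were tested on simulated counts. The results were recomputed with DESeq2 1.42.0, with limma 3.58.1 (voom), with RLE size factors, with no filter, with only the groups compared, without 1 control, without library GC055057 or without the 6 libraries labelled human skin, and with scaling to testis transcripts. Tables and figures used Python 3.11.15, numpy 2.4.6, pandas 2.3.3 and matplotlib 3.10.9.

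The members and lists were chosen with earlier results of these data known. The lists held 126 symbols, of which 125 were found, 2 as synonyms. Of each list at most 4 genes were named, those with the smallest p in group 4 against group 1, besides the 8 regulators, *Pink1* and the 10 genes most like their mean profile. *vis* was an exception, and the general TAF paralogs were named in full. Positions are from BDGP6.54. Protein and promoter sequences were not used here.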

Additional observations from a re-analysis of the deposited data

Results flagged for a closer look

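In group 4 the highest library for *tomb*, GC055069, had 11.36 CPM and lay far from the other 9 libraries of the group by Dixon's test, which were at 6.16 to 7.97 CPM. The same library was also the highest of group 4 for *sa*, with 31.4 CPM, and for *nht*, with 12.2 CPM. Of 24 tests (8 genes in 3 mutant groups) this was the 1 that passed, and chance alone passes about 1 in 20.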

How the results depend on the processing

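The counts of the 8 genes past the threshold (4, 3 and 4 in groups 4, 3 and 2 against group 1, and 3 in the F-test) depended most on the controls. With 1 control left out they ranged from 0 to 2 in groups 4, 3 and 2 and from 0 to 2 in the F-test, and the lone control was then assumed to vary like the other groups. In group 2 the count was 2 with only the groups compared in the fit and 2 with scaling to testis transcripts, where 11.6% and 23.7% of all genes passed, and in group 4 it was 2 without the libraries labelled human skin, where 25.5% passed. Between mutant groups it was 0 under every alternative. Some signs turned. Scaled to testis transcripts, the log2 fold changes in group 4 were -0.16 for *nht*, -0.39 for *comr* and -0.13 for *topi*, in group 3 they were -0.0662 for *sa*, -0.11 for *nht*, -0.67 for *aly*, -0.28 for *comr* and -0.00276 for *topi*, and in group 2 they were -0.41 for *aly* and -0.0705 for *comr*. With 1 control left out *aly* ranged from -0.173 to 0.0843 in group 4 and from -0.10 to 0.151 in group 3, and in group 3 it was -0.0280 without library GC055057 and -0.0214 without the libraries labelled human skin. Between groups 4 and 3, *nht* was 0.0347 and *aly* 0.00252 without library GC055057, and *tomb* was -0.000621 without the libraries labelled human skin. Between groups 4 and 2, *tomb* was 0.0528 with limma-voom and 0.0259 without library GC055057. Apart from the testis scaling, whose construction sets testis genes to 0 on average, the cause was not tested. Without *betaTub85D* in the sum of structural genes, added after the data were seen, r was -0.355 for *sa*, -0.290 for *tomb* and -0.0566 for *mia*. No paired analysis was possible because the labels tie no library of one group to a library of another, although groups 4 and 3 share parent pairs. With DESeq2 5, 4 and 5 genes passed in groups 4, 3 and 2, against 37.5%, 31.5% and 25% of all genes. Its likelihood ratio test, used in place of the F-test, called 4 of the 8 genes, against 32.3% of all genes. Counts as low as 23 for *comr* and the 2 controls limit the precision of small differences.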
